A study of Mus musculus with 4 samples.

Results

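The cells described here are T cells of the melanoma infiltrate that carried transcripts of Ikzf2 or Klra6 and little or no Cd4 or Cd8b1 transcript. They were picked barcode by barcode from 4 droplet single-cell 3' RNA-seq libraries by a fixed rule on unique molecular identifiers (UMIs, each counting 1 captured transcript). A barcode needed at least 200 genes and at most 10% of its UMIs from mitochondrial genes. It also needed at least 2 UMIs of Cd3d, Cd3e and Cd3g together and at least 2 UMIs of Ikzf2 and Klra6 together. It could hold no UMI of Foxp3, Cd4 or Ncr1, at most 1 UMI of Cd8b1 and at most 2 UMIs of the macrophage genes C1qa, C1qb and Csf1r together. The rule took 473 of 11224 cells, and they are called Ikzf2+ T cells below, although 15 of them held Klra6 and no Ikzf2 UMI.

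The 4 libraries were made from live CD45+ cells sorted from subcutaneous B16F10-OVA tumours, a mouse melanoma line made to carry the model antigen ovalbumin. The hosts were miR-155 T cell conditional knockout mice (miR-155 TCKO) or wild-type C57BL/6 mice, taken at day 9 or day 12 after injection. The labels give no age, no driver of the deletion and no floxed or Cre-only control, and all hosts carried the same tumour line. Each group had more than 4 mice, whose tumours were pooled to give 1 library, so there is no replicate within a genotype and day, and a value can hold what was particular to 1 pool or 1 preparation.

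Ikzf2 encodes Helios, a zinc finger factor of the Ikaros family. In mice it is best known from regulatory T cells, and it is also found in self-reactive and innate-like T cells that arise in the thymus, among them CD8αα cells of the gut epithelium and Ly49+ CD8 T cells. Klra6 encodes Ly49F, one of the Ly49 lectin receptors that bind MHC class I; most of the family inhibit the cell through tyrosine motifs, while others pair with adaptors such as DAP12 (Tyrobp) and activate it. miR-155 is a microRNA induced in activated lymphocytes that lowers the output of transcripts carrying matches to its seed in their 3' untranslated region (UTR). Inpp5d, which encodes the lipid phosphatase SHIP1, and Socs1, a brake on cytokine signalling, are widely used targets.

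The deleted microRNA and 3 of its reported sites are shown because the genotype comparison turns on them. The mature sequence is from RefSeq (GRCm38.p6, chr16:84714143-84714165, plus strand), with its seed, bases 2 to 8, in capitals.
miR-155-5p: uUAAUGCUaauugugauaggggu
The sites are from GENCODE vM21 3' UTRs (GRCm38), with the 7 bases that pair with the seed in capitals: Inpp5d at chr1:87719828-87719854 on the plus strand, Socs1 at chr16:10784197-10784223 on the minus strand and Ets1, a T cell transcription factor, at chr9:32757198-32757224 on the plus strand.
Inpp5d site: gtttttaaaaAGCATTAaagaaaacca
Socs1 site: gctgtgccgcAGCATTAagtgggggcg
Ets1 site: tgggttttaaAGCATTAaccttcatgg
The letters AGCATTA were searched on the transcript strand only.

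Libraries held 1778 to 3749 barcodes and 18783490 to 33902064 UMIs. The Ikzf2+ T cells were shallower than the average barcode, with a median of 4066 UMIs against 7884.5 over all cells. By library their median was 4207 and 4699.5 UMIs in the knockout and wild-type libraries of day 9, and 3882 and 3452.5 UMIs in those of day 12. Pairs of libraries shared 4 to 16 barcode sequences, and none of these was an Ikzf2+ T cell in both. Summed over the cells of a library, the values rest on 1238594 and 403395 UMIs at day 9 and on 274956 and 464560 UMIs at day 12, knockout first.

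The label was then set against its markers and against those of other cells. The values of Ikzf2, Klra6 and Cd3e chose the cells, so they are a description. Ikzf2 was at 773 and 875 CPM (counts per 1000000 UMIs of the summed cells) in the knockout and wild-type Ikzf2+ T cells of day 9, and at 840 and 846 CPM in those of day 12. In the macrophage-type barcodes of the same libraries, with at least 5 UMIs of C1qa, C1qb and Csf1r and no Cd3 UMI, it was at 0 to 2.64 CPM. Cd3e was at 328 and 382 CPM on day 9 and 273 and 282 CPM on day 12, and no macrophage-type barcode held a Cd3e UMI. Klra6 was at 187 and 183 CPM on day 9 and 160 and 183 CPM on day 12. Most cells entered through Ikzf2 alone: 296 of 473 (62.6%, 95% Clopper-Pearson interval 58.0 to 67.0) held Ikzf2 only, 162 (34.2%) held both and 15 (3.17%) held Klra6 only. At the threshold, 114 cells had exactly 2 UMIs of the pair, with a median depth of 3986 UMIs, and 135 cells just outside had 1, with a median depth of 3677 UMIs. Another 62 cells held the 1 Cd8b1 UMI the rule allows, and 403 held no UMI of the 3 macrophage genes.

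Whether the cells are unconventional T cells by their receptor was not analysed here, since the T cell receptor chain genes are not among those used. Zbtb16, which encodes PLZF, the defining factor of natural killer T and MAIT cells, had 4 UMIs in all 473 cells, 2 in each day 12 library. Cd163l1 (SCART1) and Blk, both known from IL-17-type γδ T cells, had 32 and 22 UMIs over all libraries, 25 and 19 of them at day 12. Il17a had 81 UMIs, all in 1 cell of the knockout day 9 library. Melanoma genes summed to 2.42 to 4.31 CPM per library, with Mlana and Dct at 0 throughout. In the knockout day 12 library 1 cell held 564 of the 565 UMIs of Hbb-bs, a haemoglobin chain, and the haemoglobin values of that library are that cell.

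Myeloid transcripts were present and uneven. The summed level of the 9 monocyte and macrophage genes was 1201 and 548 CPM in the knockout and wild-type Ikzf2+ T cells of day 9 and 4463 and 1944 CPM in those of day 12, against 24759 to 32447 CPM in macrophage-type barcodes. The 11 dendritic cell genes summed to 5027 and 6356 CPM on day 9 and 927 and 6419 CPM on day 12, against 25133 to 34641 CPM in macrophage-type barcodes. Lyz2, the lysozyme of macrophages, had a UMI in 155 of 234 and 23 of 70 Ikzf2+ T cells of the knockout and wild-type libraries of day 9, and in 43 of 63 and 67 of 106 of those of day 12. Cells with 5 or more Lyz2 UMIs were 26 of the 473. By library these were 13 and 3 at day 9 and 3 and 7 at day 12, knockout first.

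At day 9 the Ikzf2+ T cells were a larger share of the sorted cells in the knockout library than in the wild-type library, and at day 12 the shares were close. They were 234 of 3738 cells (6.26%, interval 5.50 to 7.08) in the knockout library of day 9 and 70 of 1777 cells (3.94%, 3.08 to 4.95) in the wild-type library. At day 12 they were 63 of 2036 cells (3.09%, 2.39 to 3.94) in the knockout library and 106 of 3673 cells (2.89%, 2.37 to 3.48) in the wild-type library. Knockout over wild-type, the share was 1.59 times at day 9 (exact conditional interval 1.21 to 2.11) and 1.07 times at day 12 (0.772 to 1.48). All intervals cover counting error only, and with 1 library per group there is no test. When every cell was thinned to 2000 UMIs, which lowers the chance of reaching 2 marker UMIs, the shares were 3.67% and 2.93% at day 9 and 2.21% and 2.34% at day 12. The ratio was then 1.25 (0.904 to 1.76) at day 9 and 0.944 (0.643 to 1.37) at day 12, so the day 9 interval reached 1. Thinning also lowers the chance of seeing UMIs of Foxp3, Cd4, Ncr1 or Cd8b1 that keep a cell out, so other cells can enter. CD8 T cells of day 9 had median depths of 5020.5 and 11519 UMIs, knockout first, so such entry could differ between the libraries. The thinned ratio is thus not a control for depth alone.

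Within the T cell compartment the order was steeper. Of barcodes with at least 2 Cd3 UMIs, the Ikzf2+ T cells were 23.4% (20.8 to 26.1) of 1002 in the knockout library of day 9 and 6.46% (5.07 to 8.10) of 1083 in the wild-type library, a ratio of 3.61 (2.76 to 4.79). At day 12 they were 20.9% (16.5 to 26.0) of 301 in the knockout library and 15.3% (12.7 to 18.1) of 695 in the wild-type library, a ratio of 1.37 (0.988 to 1.89). T cells that met the same rule but held no UMI of Ikzf2 or Klra6 were 16.3% in knockout and 5.63% in wild-type hosts at day 9. At day 12 they were 22.6% and 18.8%. Those with 1 such UMI were 5.79% and 1.39% at day 9 and 8.64% and 5.18% at day 12. This order was thus not particular to the Ikzf2+ T cells. The share of CD8 T cells went the other way: at day 9 it was 28.1% of T cells in knockout and 52.5% in wild-type hosts, and at day 12 it was 14.6% in knockout and 27.1% in wild-type hosts. There were 0.830 Ikzf2+ T cells per CD8 T cell in the knockout library of day 9 against 0.123 in the wild-type library, and 1.43 against 0.564 at day 12.

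**Figure D1:**
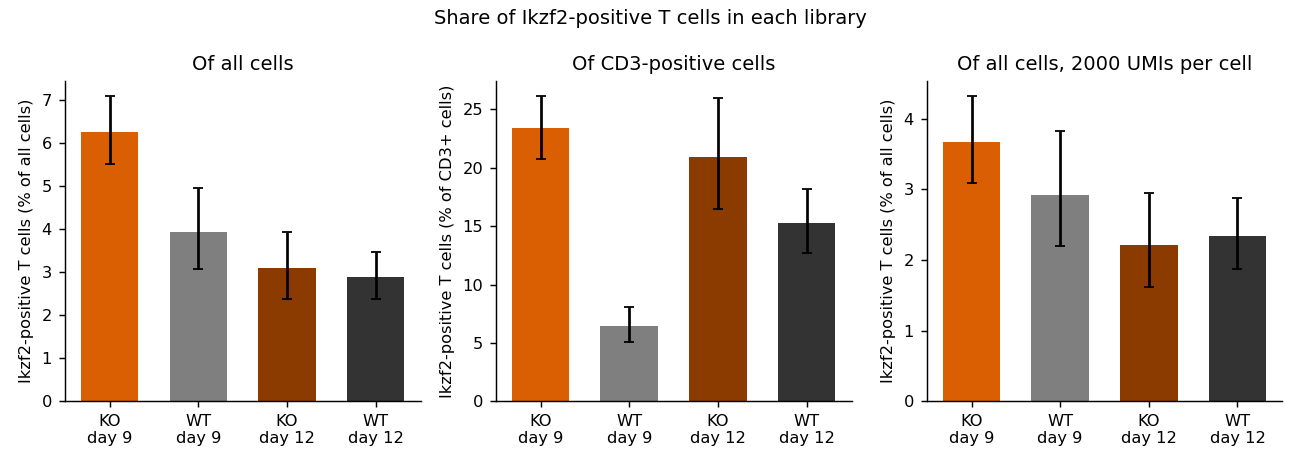
Percent of Ikzf2+ T cells in each library (y axes), of all cells, of cells with at least 2 Cd3 UMIs, and of all cells after thinning to 2000 UMIs each. Bars are single libraries, knockout (KO) beside wild-type (WT) for each day, and lines are 95% Clopper-Pearson intervals for counting error; the knockout bar of day 9 is highest in each panel, at 6.26%, 23.4% and 3.67%.

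The direction from day 9 to day 12 depended on the denominator in wild-type hosts. Of all cells, the share at day 12 was 0.494 times that at day 9 (0.368 to 0.655) in knockout libraries and 0.733 times (0.537 to 1.01) in wild-type libraries. Of T cells, it was 0.896 times in knockout libraries and 2.36 times (1.73 to 3.24) in wild-type libraries. The T cells of the same rule without a UMI of Ikzf2 or Klra6 also went up in wild-type libraries, from 5.63% to 18.8% of T cells.

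Set beside CD8 T cells of the same libraries, the Ikzf2+ T cells had more transcripts of Ly49 and other natural killer (NK) receptors and of the adaptor FcRγ, and fewer of Ccl4 and other chemokines, Lag3, Havcr2 and Cd8a. The 1083 CD8 T cells had at least 2 Cd8b1 UMIs and at most 1 UMI of Ikzf2 and Klra6. UMIs were summed per library and cell group, and edgeR's quasi-likelihood test was run over 4 library pairs with the library as a block and Benjamini-Hochberg adjustment over all genes tested. The 12 genes of the rule were not tested. Of 7107 genes, 43 (0.605%) had an adjusted p of at most 0.05, of which 19 (0.267%) were higher in Ikzf2+ T cells and 24 (0.338%) lower.

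Klra7 encodes Ly49G, an inhibitory receptor, and Klra1 encodes Ly49A. Klra7 was at 357 and 412 CPM in the knockout and wild-type Ikzf2+ T cells of day 9 and at 495 and 288 CPM in those of day 12, and at 13.1, 5.43, 4.13 and 1.67 CPM in the CD8 T cells of the same libraries. Klra1 was at 129 and 144 CPM on day 9 and 218 and 131 CPM on day 12, and reached at most 3.35 CPM in CD8 T cells. The ranges of both genes were far apart in all 4 libraries. The log2 differences were 5.90 ± 0.35 for Klra7 (SE, edgeR adjusted p = 3.88e-05) and 6.64 ± 0.43 for Klra1 (edgeR adjusted p = 5.18e-05). All 5 Ly49 genes tested rose, with a median log2 difference of 5.90 against 0.03 over all genes. The other 3 were Klra9 at 5.70 ± 0.32, Klra5 at 6.93 ± 1.06 and Klra3 at 2.24 ± 0.33, but Klra5 had 23 UMIs in all and 49.3% of the 31-base words at the 3' end of Klra9 also occur in Klra3, so that pair may share reads. Of 370 such words of Klra6, the gene of the rule, 24 (6.49%) occur in Klra3 and 24 in Klra9, so reads of the gene that chose the cells may be counted in those 2 calls. None occurs in Klra1, Klra5 or Klra7. The rule also let cells in by Klra6, itself a Ly49 gene, and held CD8 T cells to at most 1 UMI of Ikzf2 and Klra6. The direction of the Ly49 genes may thus follow in part from the rules and is a description. Klra6, Klra1 and Klra7 lie in the same region of mouse chromosome 6, at chr6:130013033-130026954, chr6:130363917-130386874 and chr6:130218605-130233322 (GRCm38, minus strand), with other Ly49 genes between them.

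The Ly49 signal was carried by a sizeable fraction of cells rather than a few. With each cell thinned to 2000 UMIs, 36.8% of Ikzf2+ T cells had a Klra7 UMI, against 1.2% of CD8 T cells and 0.4% of macrophage-type barcodes. For Klra1 the shares were 20.1%, 0.5% and 0.0%. Unthinned, with median depths of 4066, 6858 and 9891.5 UMIs, Klra7 was seen in 50.1%, 3.5% and 2.0% of cells and Klra1 in 28.8%, 0.9% and 0.5%. By library the thinned share with Klra7 was 40.2% and 38.6% at day 9 and 44.4% and 23.6% at day 12, knockout first.

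Fcer1g, the FcRγ adaptor that couples activating receptors to kinases, was at 812 and 729 CPM in the Ikzf2+ T cells of day 9 and at 804 and 934 CPM in those of day 12, against 191, 135, 194 and 249 CPM in CD8 T cells. The log2 difference was 2.12 ± 0.17 (edgeR adjusted p = 0.000229), and the groups did not overlap in any library. Fcer1g is also a macrophage transcript, so its share is given with that of Lyz2: after thinning, 56.7% of Ikzf2+ T cells and 15.0% of CD8 T cells had an Fcer1g UMI, while 37.2% and 25.2% had a Lyz2 UMI. Without the 26 cells of 5 or more Lyz2 UMIs Fcer1g still passed the test, whereas Tyrobp did not. CD8 T cells of 5 or more Lyz2 UMIs were kept in that check. Tyrobp rose by 1.08 ± 0.19 (edgeR adjusted p = 0.0349) with all cells and was at 0.27 without those 26. Klrb1c (NK1.1) rose by 5.21 ± 0.38, although it stayed at 70.2 and 94.2 CPM on day 9 and 80.0 and 49.5 CPM on day 12, against 450 to 589 CPM in NK cells. Klre1, an NKG2-type lectin receptor, rose by 2.04 ± 0.32, and these were the 2 of 12 NKG2 and NKR-P1 genes that passed. Cd7, an adhesion and costimulatory glycoprotein of early T and NK cells, rose by 2.26 ± 0.31 (edgeR adjusted p = 0.00967). It was at 619 and 647 CPM on day 9 and 564 and 532 CPM on day 12, against 146, 58.9, 173 and 161 CPM in CD8 T cells. Klhdc2, which encodes a substrate receptor of a ubiquitin ligase, rose by 2.03 ± 0.19 (edgeR adjusted p = 0.000623). Rgs2, Rnf130 and Cxcl10 also rose, by 1.64, 1.83 and 1.58; Cxcl10 no longer passed without the cells of 5 or more Lyz2 UMIs.

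**Figure D2:**
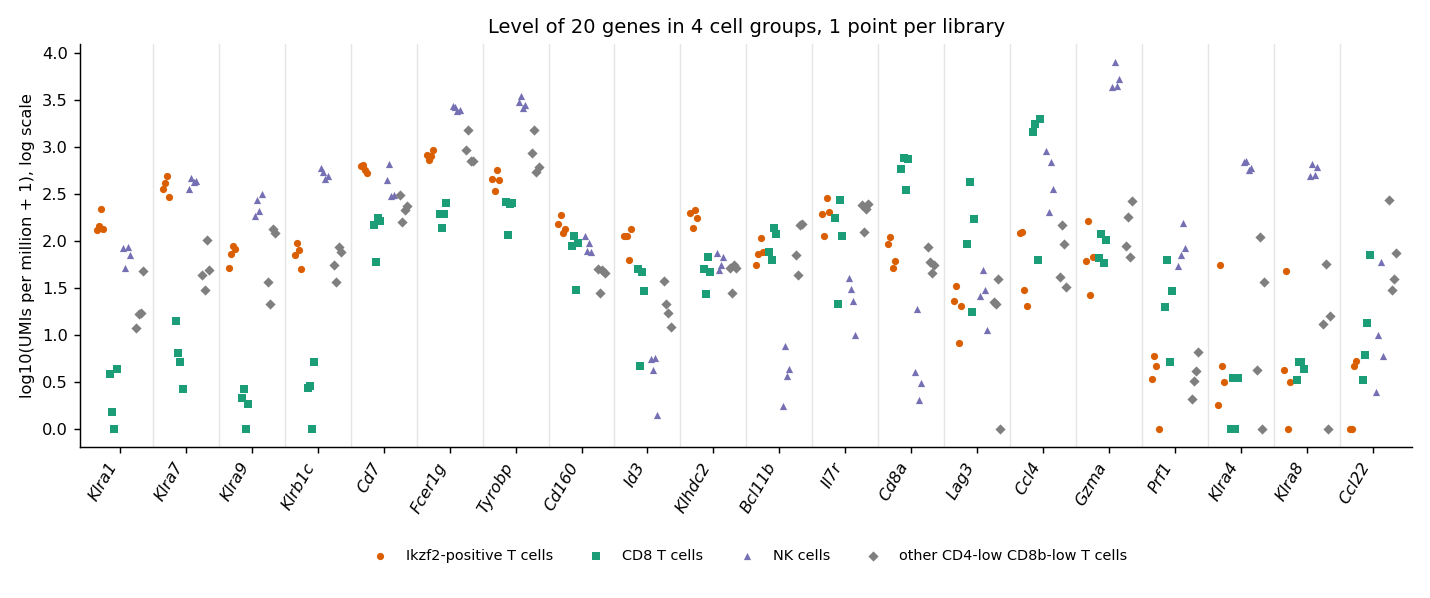
Level of 20 genes (y axis, log10 of CPM plus 1) in Ikzf2+ T cells, CD8 T cells, NK cells and the other T cells low in Cd4 and Cd8b1; each point is 1 library. Klra7 of the Ikzf2+ T cells lies between 288 and 495 CPM, beside NK cells and above CD8 T cells and other T cells in every library, while Klra4 and Gzma lie far below NK cells.

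Among the genes lower in Ikzf2+ T cells were chemokine and effector genes. Of 13 lymphocyte cytokine and chemokine genes 5 fell and none rose: Ccl1, Ccl3, Ccl4, Ccl22 and Ifng. Ccl4, an inflammatory chemokine, was at 121 and 124 CPM on day 9 and 29.1 and 19.4 CPM on day 12, against 1421, 1739, 61.9 and 1988 CPM in CD8 T cells, a log2 difference of -4.03 ± 0.54 (edgeR adjusted p = 0.00927). In the knockout day 12 library the CD8 T cells were only 44 cells, and their Ccl4 level lay below the Ikzf2+ T cells of day 9. Of 15 cytotoxic genes Prf1 (perforin) and Gzmk fell, at -3.33 ± 0.49 and -3.73 ± 0.60, and none rose. Of 18 inhibitory receptor genes 2 fell and none rose, with a list median of 0.00: Lag3 and Havcr2 (TIM-3) were at -2.81 ± 0.28 and -3.56 ± 0.38, while Pdcd1 (PD-1) was at -1.75 ± 0.54 and did not pass (edgeR adjusted p = 0.187). Of 23 cell cycle genes 1 fell, Rrm2, a subunit of ribonucleotide reductase, and the median of the list was -1.61. After thinning, 0.4% of Ikzf2+ T cells and 7.1% of CD8 T cells had an Mki67 UMI. By edgeR none of 27 T cell transcription factor genes and none of 17 naive and memory genes passed, with 13 and 7 at an unadjusted p under 0.05 and 2 and 0 called by DESeq2; Tcf7 was at 0.92 ± 0.55 and Id3 at 2.27 ± 0.59. Cd8a, which pairs with Cd8b1 in CD8αβ and also forms CD8αα, was at 91.2 and 109 CPM on day 9 and 50.9 and 60.3 CPM on day 12, against 580, 755, 351 and 733 CPM in CD8 T cells. Because the rule capped Cd8b1, this is a description; 14.2% of the thinned Ikzf2+ T cells had a Cd8a UMI, against 0.4% of NK cells and 0.4% of macrophage-type barcodes.

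Of 12 tested genes on a list for CD8αα and innate-like killer T cells, Klra1, Klra7, Fcer1g and Tyrobp rose and Cd8a fell. The list's Ikzf2, Klra6 and Cd3e belong to the rule and were not tested. The calls against CD8 T cells leaned on single libraries. Without the knockout day 9 library 14 genes were called, and without the wild-type day 12 library 15. Of the 18 named genes, Klra1, Klra7, Klra9, Klrb1c, Fcer1g, Klhdc2, Cd8a and Lag3 passed under every alternative tried.

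Beside NK cells of the same libraries, the Ikzf2+ T cells had more T cell and memory-type transcripts and less of most granzyme and NK receptor genes, while Klra7 did not pass the test and Klra1 was higher. The 1064 NK cells held at least 1 Ncr1 UMI (NKp46) and at most 1 Cd3 UMI. The Ikzf2+ T cells needed at least 2 Cd3 UMIs and no Ncr1 UMI. Higher T cell genes and lower NK cell genes in this comparison thus follow in part from the rules and are a description. Of 8231 genes tested, 1058 (12.9%) were called, 539 (6.55%) higher and 519 (6.31%) lower. Granzyme A, a serine protease of killer lymphocyte granules, was at 59.7 and 161 CPM in the knockout and wild-type Ikzf2+ T cells of day 9 and at 25.5 and 66.7 CPM in those of day 12. In NK cells Gzma was at 4300, 7915, 4478 and 5248 CPM, and in macrophage-type barcodes at 19.2 to 76.4 CPM. The log2 difference from NK cells was -6.05 ± 0.18 (edgeR adjusted p = 8.80e-12). After thinning 4.7% of Ikzf2+ T cells and 2.9% of macrophage-type barcodes had a Gzma UMI. Of 17 cytotoxic genes 13 fell and none rose (median -2.23 against -0.02 over all genes), with log2 differences of -3.04 ± 0.13 for Gzmb, -5.78 ± 0.30 for Gzmc and -4.71 ± 0.35 for Prf1. Gzme had no UMI in any Ikzf2+ T cell and 84.8 CPM on average in NK cells.

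Of 13 NKG2 and NKR-P1 genes 11 fell and 1, Clec2i, rose. Klrb1c was at -2.76 ± 0.15, Klrk1 (NKG2D) at -1.12 ± 0.13 and Klrd1 (CD94) at -0.51 ± 0.10. The Ly49 genes split. Klra1 rose by 1.16 ± 0.16 (edgeR adjusted p = 9.38e-05). Klra7 differed by -0.01 ± 0.12 (edgeR adjusted p = 0.971), at 354, 464, 420 and 430 CPM in NK cells. Klra4 (Ly49D) and Klra8 (Ly49H), which activate through DAP12, fell, at -5.75 ± 0.44 and -5.58 ± 0.37. Klra4 had 0.807, 3.64 and 2.15 CPM in the knockout day 9, knockout day 12 and wild-type day 12 libraries and 54.5 CPM in the wild-type day 9 library, against 565 to 701 CPM in NK cells. Klra3 and Klra9 fell as well, at -1.91 and -1.66. Fcer1g and Tyrobp, the adaptors, fell, at -1.53 ± 0.10 and -2.62 ± 0.13.

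On the T cell side, 11 of 12 genes of receptor-proximal signalling rose and none fell, a list that leaves out the Cd3 genes of the rule. Because Cd3 UMIs divided the groups, this direction is a description. Lat, the membrane adaptor of the T cell receptor, rose by 2.44 ± 0.13. Of 16 naive and memory genes 13 rose and none fell. Il7r, the survival receptor for IL-7, was at 193 and 112 CPM on day 9 and 284 and 200 CPM on day 12, against 38.9, 29.6, 22.1 and 9.1 CPM in NK cells, a log2 difference of 3.16 ± 0.28 (edgeR adjusted p = 9.81e-07). Tcf7 rose by 1.77 ± 0.14, Lef1 by 1.95 ± 0.17, S1pr1, the exit receptor for sphingosine phosphate, by 3.28 ± 0.26 and Dapl1 by 6.99 ± 0.44. Bcl11b, a T lineage factor counted in the signalling list, rose by 4.66 ± 0.30. Of 29 other transcription factor genes 5 rose and 5 fell: Id3 rose by 5.20 ± 0.35, while Eomes, Id2 and Tbx21 (T-bet) fell, at -2.27 ± 0.18, -1.83 ± 0.17 and -0.78 ± 0.20. All 24 named genes passed against NK cells under every alternative.

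**Figure D3:**
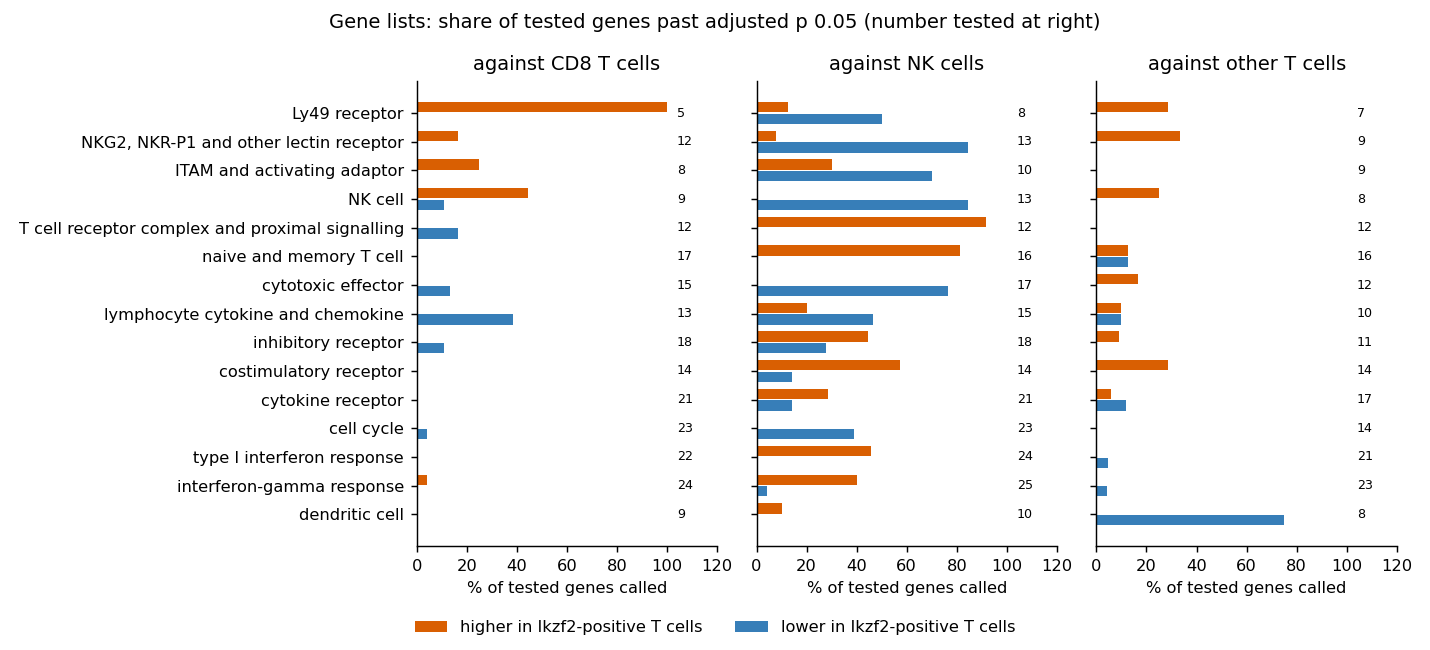
Percent of the tested genes of 15 lists that were called higher or lower in Ikzf2+ T cells (x axes), against CD8 T cells, NK cells and the other T cells; the number tested stands at the right of each panel. All 5 Ly49 genes were higher than in CD8 T cells, and 13 of 17 cytotoxic genes were lower than in NK cells.

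The closest comparison was with the 423 T cells that met the same rule but held no UMI of Ikzf2 or Klra6. Against these, the Ikzf2+ T cells had more Klra7, Klra1, Id3, Klhdc2, Cd160 and Cd7, and fewer dendritic cell transcripts. Of 5330 genes tested, 106 (1.99%) were called, 34 (0.638%) higher and 72 (1.35%) lower. Klra7 was at 288 to 495 CPM in Ikzf2+ T cells, above the 42.3 and 29.2 CPM of the knockout and wild-type other T cells of day 9 and the 102 and 48.4 CPM of those of day 12. The log2 difference was 2.92 ± 0.22 (edgeR adjusted p = 0.000104), and that of Klra1 was 2.82 ± 0.31 (edgeR adjusted p = 0.00172). Because Klra6 helped divide these groups, the direction of both Ly49 genes may follow in part from the rule and is a description. Median depths were close, at 4066 UMIs in Ikzf2+ T cells and 3880 UMIs in the others.

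Id3, an inhibitor of E proteins that marks memory and innate-like T cell states, was at 111 and 112 CPM in the knockout and wild-type Ikzf2+ T cells of day 9 and at 61.8 and 133 CPM in those of day 12. It averaged 21.0 CPM over the 4 libraries in the other T cells, a log2 difference of 2.24 ± 0.28 (edgeR adjusted p = 0.00324), and its partner in that family, Id2, fell by 0.89 ± 0.13. Klhdc2 rose by 2.01 ± 0.15 (edgeR adjusted p = 0.000104), at 195 and 136 CPM on day 9 and 215 and 174 CPM on day 12, against 51.0, 26.9, 54.2 and 50.3 CPM. Cd160, a receptor for HVEM found on intraepithelial T cells and NK cells, was at 151 and 186 CPM on day 9 and 120 and 131 CPM on day 12. The other T cells had 49.9, 26.9, 47.8 and 44.7 CPM of Cd160, a log2 difference of 1.81 ± 0.22 (edgeR adjusted p = 0.00275). Cd7 rose by 1.44 ± 0.18. After thinning, 24.9% of Ikzf2+ T cells and 7.8% of the others had a Cd160 UMI, 30.9% and 11.1% a Klhdc2 UMI and 17.5% and 4.5% an Id3 UMI, against 0.0%, 3.9% and 1.2% of macrophage-type barcodes. Unthinned, the shares were 38.3% and 15.4% for Cd160, 52.2% and 20.3% for Klhdc2 and 30.7% and 9.2% for Id3.

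Of 14 costimulatory receptor genes 4 rose and none fell, among them Tnfrsf9 (4-1BB) by 1.42 ± 0.29, Cd27 by 0.83 ± 0.17 and Tnfrsf18 (GITR) by 0.78 ± 0.17. Of 9 NKG2 and NKR-P1 genes 3 rose, including Klre1 by 1.22 ± 0.20 and Klrd1 by 1.06 ± 0.17. Of 12 cytotoxic genes 2 rose, Ctsw by 0.84 ± 0.17 and Tnfsf10 (TRAIL) by 2.00 ± 0.42. These are edgeR calls, and DESeq2 called 1 costimulatory, 2 NKG2 and NKR-P1 and 1 cytotoxic gene. Ccr7, the receptor for homing to lymph nodes, and Igfbp4 fell, at -1.63 ± 0.29 and -5.11 ± 0.54. The part of the dendritic cell transcripts described below in the fall of Ccr7 was not tested. Of 11 tested genes on the CD8αα and innate-like killer list, 3 rose, Klra1, Klra7 and Cd160, and none fell. Of 12 genes of T cell receptor signalling none passed by edgeR or DESeq2, and 4 had an unadjusted p under 0.05.

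Genes of migratory dendritic cells were among those that fell. Ccl17 and Ccl22, chemokines for CCR4, fell, at -7.28 ± 0.43 and -6.71 ± 0.59, and so did Fscn1, the actin bundler fascin, at -4.26 ± 0.37. The 11 dendritic cell genes summed to 5027, 6356, 927 and 6419 CPM in Ikzf2+ T cells, below the 13237 and 30796 CPM of the other T cells on day 9 and their 4022 and 9173 CPM on day 12, and 6 of the 8 genes tested fell. The part of these transcripts in the other calls of this comparison was not tested. With doublet scores used to remove barcodes, 188 genes were called, and without the knockout day 9 library 19. Klra7, Klra1, Id3, Klhdc2, Cd160, Cd7, Ccl17, Ccl22, Fscn1, Igfbp4 and Socs2 passed under every alternative.

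The Ikzf2+ T cells were not uniform, and those with a Klra6 UMI had more of some other NK receptor transcripts, among them Klra7, Klrb1c, Klre1 and Klrd1. The split was made after the values were seen and is a description, with 177 cells that held a Klra6 UMI (median 4361 UMIs) and 296 that did not (3975 UMIs). In all 4 libraries the cells with Klra6 had the higher level of Klra7, Klra9, Klrb1c, Klre1, Klrd1, Cd160, Cd7, Xcl1, Ctsw and Cd8a. These are picked from a panel of genes, and the share of the panel or of all genes with such an order was not counted. The panel also held Klra1, Klra3, Klra5, Klrk1, Fcer1g and Tyrobp, which are not among the genes listed. Klra9 shares 24 of the 370 words of Klra6 given above, so part of its difference may be the same reads. Klra7 was at 539 and 478 CPM on day 9 and 650 and 517 CPM on day 12 in cells with Klra6, against 226, 367, 418 and 189 CPM in cells without. Cd160 was at 220 and 267 CPM on day 9 and 176 and 227 CPM on day 12 in cells with Klra6, against 101, 132, 92.3 and 89.7 CPM in cells without. Id3 had no such order. After thinning, 47.5% of cells with Klra6 and 30.4% of cells without had a Klra7 UMI, 33.3% and 19.9% a Cd160 UMI, and 33.9% and 14.5% a Klre1 UMI. All UMIs of Cd163l1, Blk, Zbtb16 and Il17a lay in the cells without Klra6. Lyz2 was also uneven: at day 12 it was at 242 and 389 CPM in cells with Klra6, against 5310 and 1497 CPM in cells without, and on day 9 it was at 937 and 137 CPM with Klra6 and at 358 and 161 CPM without, so the order turned in the knockout library of that day.

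The comparison of genotypes within Ikzf2+ T cells asks what loss of miR-155 in T cells does to them. The host gene of the microRNA, Mir155hg (chr16:84703167-84715245), had 0 UMIs in both knockout libraries and 1 and 3 UMIs in the wild-type libraries of day 9 and day 12. That is too few to check the labels, and the labels do not say which part of the gene was deleted. In CD8 T cells it had 0 and 0 UMIs in the knockout libraries, against 67 and 12 in the wild-type libraries of day 9 and day 12. Summed UMIs were fitted over the 4 libraries with genotype and day, so the 2 days stand in for replicates and 1 residual degree of freedom is left. edgeR's prior degrees of freedom were infinite in this fit, which means that each gene's spread was taken from the trend over all genes and none from its own libraries; the SE and adjusted p of genotype and day rest on that. After removal of 9 cells by doublet score the prior was 5.90 degrees of freedom. A change in the number of cells of a state and a change of RNA per cell cannot be told apart in such sums.

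Of 4393 genes tested, 28 (0.637%) were called, 13 (0.296%) higher and 15 (0.341%) lower in knockout Ikzf2+ T cells. The 2 that passed every alternative were Gm10709, a processed pseudogene at chr9:7751725-7752204, and Rpl29, a ribosomal protein gene at chr9:106429454-106431568. Gm10709 was at 1171 CPM at day 9 and 1255 CPM at day 12 in knockout libraries, against 19.8 and 17.2 CPM in wild-type libraries. Rpl29 was at 153 and 189 CPM in knockout libraries, against 2509 and 2458 CPM in wild-type libraries. The log2 differences were 5.97 ± 0.32 (edgeR adjusted p = 2.12e-71) and -3.93 ± 0.26 (edgeR adjusted p = 6.54e-46). The pair may share reads, since 253 of 370 words of 31 bases at the end of Gm10709 (68.4%) occur in Rpl29. Together they were at 1324 and 1444 CPM in knockout Ikzf2+ T cells of day 9 and day 12, below the 2529 and 2475 CPM of wild-type ones. Of their summed UMIs Gm10709 took 88.4% and 86.9% in knockout Ikzf2+ T cells, against 0.784% and 0.696% in wild-type ones. The same split stood in macrophage-type barcodes, at 86.6% and 84.7% in knockout libraries and 1.11% and 0.747% in wild-type libraries, and in NK cells, at 89.3% and 86.4% in knockout libraries and 1.35% and 0.646% in wild-type libraries.

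The genes called lower also included Wdfy1, an adaptor of endosomal Toll-like receptor signalling. It had 6 UMIs in 6 of 234 knockout cells and 10 UMIs in 9 of 70 wild-type cells at day 9, and 1 UMI in 63 knockout cells and 22 UMIs in 18 of 106 wild-type cells at day 12. The log2 difference was -2.75 ± 0.70 (edgeR adjusted p = 0.0160). Wdfy1 was lower in knockout macrophage-type barcodes too, at 6.64 against 43.7 CPM at day 9 and 13.8 against 49.7 CPM at day 12, and in knockout NK cells, at 17.2 against 69.9 CPM and 12.6 against 77.3 CPM. It was not tested without the 26 cells of 5 or more Lyz2 UMIs, where too few UMIs were left.

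Of the other calls, several were myeloid or antigen-presentation genes. The list of dendritic cell genes had 3 of 5 lower (median -1.54 against -0.01 over all genes) and that of monocyte and macrophage genes 1 of 5 higher, Lyz2 at 1.75 ± 0.24. Cd74, H2-Aa and H2-Ab1, the invariant chain and chains of MHC class II, fell, at -1.73 ± 0.26, -1.54 ± 0.25 and -1.54 ± 0.25. Cd74 was at 2517 CPM in knockout and 3324 CPM in wild-type cells on day 9, against 382 CPM in knockout and 3298 CPM in wild-type cells on day 12. H2-Aa was at 1070 and 1212 CPM on day 9 and 145 and 1322 CPM on day 12. Within days, where there is no test, none of 5 dendritic cell genes at day 9 passed 1.5-fold (median log2 ratio -0.18), while at day 12 4 were lower and 1 higher (median -3.11). Il1b, Fabp5 and Ltb4r1 rose by 3.36 ± 0.43, 3.71 ± 0.37 and 2.13 ± 0.53, and 78.6% of the knockout Il1b UMIs lay in 2 of 297 cells, 1 of each library. For Fabp5 that share was 71.9%, and of the wild-type Gzma UMIs 2 of 176 cells held 54.2%. Gzma fell by 1.48 ± 0.32 (edgeR adjusted p = 0.000834). Without the cells of 5 or more Lyz2 UMIs, 6 genes were called: Gm10709, Fabp5, Gadd45g, Tmem176a and Tmem176b, which were higher, and Rpl29. After removal by doublet score, with the smaller prior, 3 genes were called, although values moved little: Cxcl10, described next, was at 2.07 in place of 2.11 and no longer passed.

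**Figure D4:**
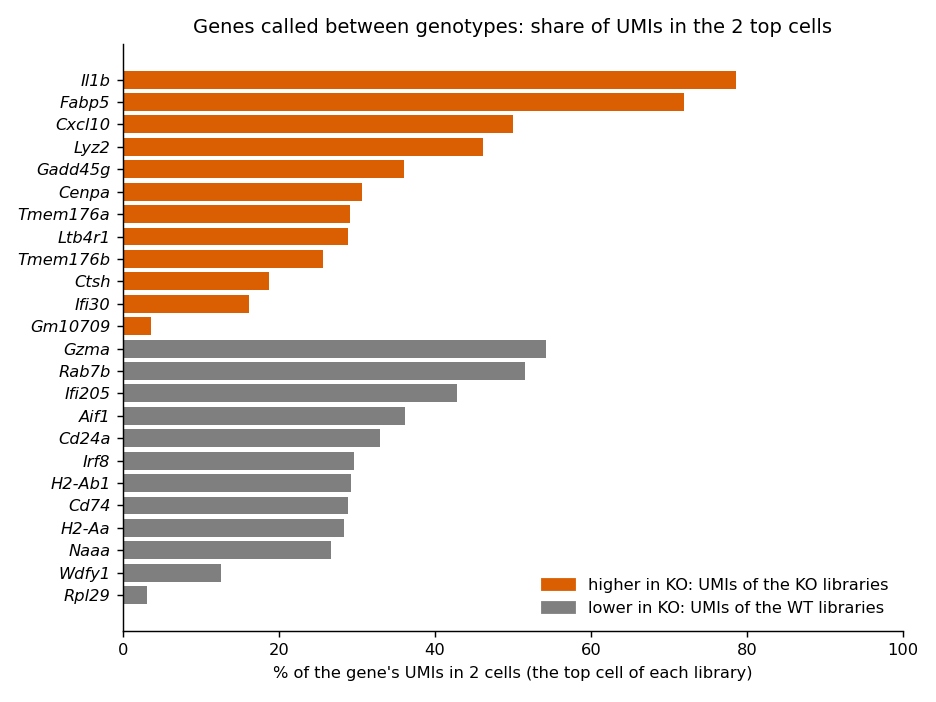
Percent of a gene's UMIs (x axis) that lay in 2 cells, the top cell of each library of the genotype with the higher level, for 24 genes called between genotypes. The share runs up to 78.6% for Il1b, and is 3.62% for Gm10709 and 3.06% for Rpl29.

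Cxcl10 (IP-10), an interferon-induced chemokine for CXCR3, was the gene whose genotype difference set these cells apart from NK cells. It was at 229 and 34.7 CPM in the knockout and wild-type Ikzf2+ T cells of day 9 and at 255 and 77.5 CPM in those of day 12, so both knockout values lay above both wild-type values. The log2 difference was 2.11 ± 0.28 (edgeR adjusted p = 4.72e-11). In CD8 T cells Cxcl10 was at 41.1 and 20.7 CPM on day 9 and 99.0 and 30.1 CPM on day 12, also higher in both knockout libraries. In NK cells it was at 41.9 and 36.2 CPM on day 9 and 35.2 and 60.8 CPM on day 12. The difference between the 2 cell groups in the genotype effect was 2.38 ± 0.33 (edgeR adjusted p = 0.0153), the only 1 of 8231 genes called (0.0121%). In macrophage-type barcodes Cxcl10 was at 812 and 1144 CPM on day 9 and 411 and 486 CPM on day 12, thus lower in knockout. Its 354 knockout UMIs lay in 35 of 297 cells, with 177 of them in 2 cells. Without the cells of 5 or more Lyz2 UMIs the genotype difference was 1.06 and did not pass.

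Against CD8 T cells, the genotype effect differed for 2 of 7107 genes (0.0281%), the naive T cell factors Satb1, a chromatin organiser, and Lef1, a partner of β-catenin. In Ikzf2+ T cells Satb1 was level between genotypes, at 177 and 181 CPM in the knockout and wild-type libraries of day 9 and at 164 and 146 CPM in those of day 12. In CD8 T cells it was at 213 and 24.6 CPM on day 9 and 227 and 51.1 CPM on day 12. Lef1 was at 121 and 84.3 CPM on day 9 and 135 and 112 CPM on day 12 in Ikzf2+ T cells, and at 151 and 26.0 CPM and 219 and 40.2 CPM in CD8 T cells. The differences in the effect were -2.82 ± 0.41 for Satb1 and -2.27 ± 0.33 for Lef1 (SE, edgeR adjusted p = 0.0320 for both). In Ikzf2+ T cells alone neither was called, with log2 differences of -0.00 ± 0.25 and 0.35 ± 0.28.

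**Figure D5:**
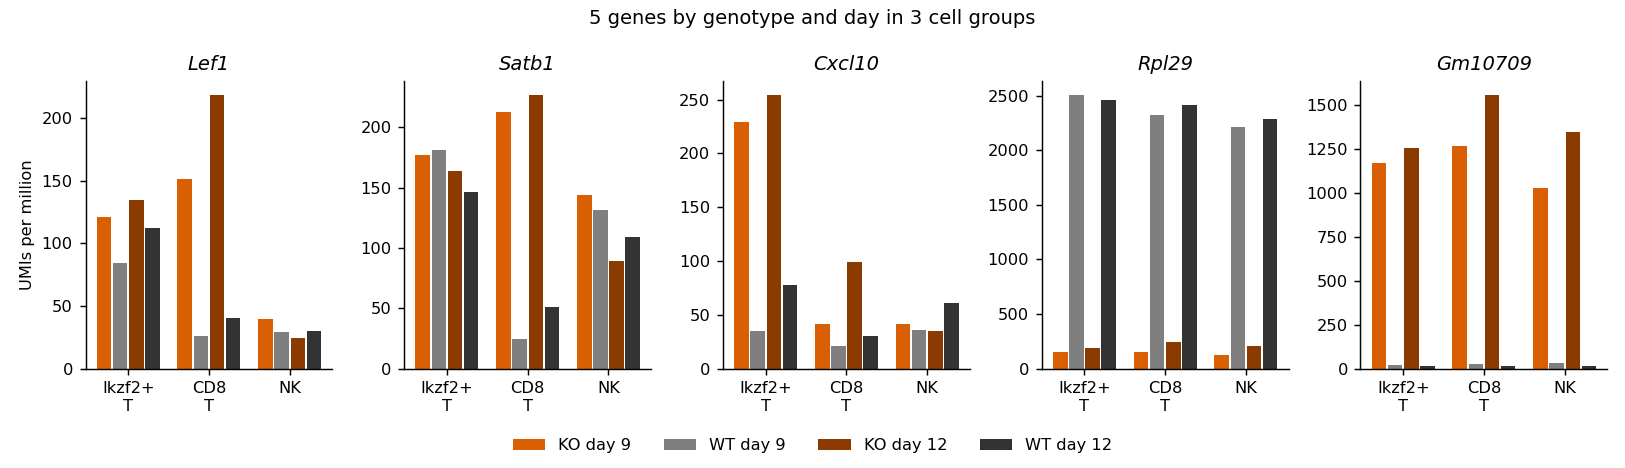
CPM (y axes, each panel with its own scale) of Lef1, Satb1, Cxcl10, Rpl29 and Gm10709 in Ikzf2+ T cells, CD8 T cells and NK cells; each bar is 1 library, knockout (KO) beside wild-type (WT) for each day, with no replicates. Lef1 and Satb1 differ by genotype in CD8 T cells more than in Ikzf2+ T cells, and Cxcl10 is higher in knockout in Ikzf2+ T cells and in CD8 T cells on both days. In knockout libraries Rpl29 is lower and Gm10709 higher in all 3 cell groups.

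The receptors and adaptors that set the population apart were not called between genotypes. Klra7 and Klra1 were at 0.21 ± 0.22 and 0.21 ± 0.25, Fcer1g at -0.08 ± 0.22, Tcf7 at -0.12 ± 0.23 and Xcl1 at -0.13 ± 0.23 (log2, edgeR adjusted p = 0.998 for each). Neither edgeR nor DESeq2 called a gene in the lists of Ly49 receptors (5 tested), T cell receptor signalling (12), costimulation (13), homing (18) or naive and memory T cells (15). At an unadjusted p under 0.05 there were 3 homing genes and 5 naive and memory genes, and 0 in the other 3 lists.

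No reported target of miR-155 was called between genotypes. Of 25 genes 15 were tested by edgeR, with 1 at an unadjusted p under 0.05 and none called by DESeq2; their median log2 difference was -0.16, against -0.01 over all genes. A miRNA target is de-repressed when the miRNA is lost, so a rise would be the direction sought. Inpp5d, whose site is shown above, was at 32.3 and 71.9 CPM in the knockout and wild-type cells of day 9 and at 25.5 and 62.4 CPM in those of day 12, thus lower in both knockout libraries (-1.25 ± 0.36, edgeR adjusted p = 0.0707). Socs1 was at 154 and 129 CPM on day 9 and 109 and 71.0 CPM on day 12 (0.35, edgeR adjusted p = 0.998), and Ets1 was at 0.00. A 3' UTR match to the seed was found in 10 of the 15 (66.7%), against 381 of 4216 genes with a UTR (9.04%). The 381 genes with a match had a median of -0.02 and none was called, and the 3835 without a match had a median of -0.01 and 26 were called.

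Within each day there is 1 library per genotype and no test, so folds are given with counts. At day 9, of 4895 genes with at least 30 UMIs over the pair, 5.31% had a knockout level at least 2 times the wild-type one and 1.92% the reverse; at day 12, of 2765 genes, 2.82% and 2.71%. At 1.5-fold, 14.3% of all genes were higher and 8.36% lower at day 9, and 11.1% and 9.29% at day 12. Cell cycle genes stood out at day 9, with 10 of 11 at least 1.5-fold higher in knockout (median log2 ratio 0.91 against 0.09 over all genes), but few cells held them. Stmn1, a microtubule regulator of dividing cells, had 97 UMIs in 13 of 234 knockout cells and 10 UMIs in 4 of 70 wild-type cells at day 9. At day 12 it had 2 UMIs in 2 of 63 knockout cells and 87 UMIs in 13 of 106 wild-type cells. The type I interferon response list leaned to wild-type at day 9, where 8 of 19 genes passed the 1.5-fold mark in that direction (median log2 ratio -0.41), while at day 12 5 of 14 passed it towards knockout and 1 towards wild-type.

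Between days, Ikzf2+ T cells of day 12 had more Cxcr6, Pdcd1, Ly6a and Capg, and less Xcl1 and Ccl4, than those of day 9, next to a rise in macrophage transcripts. Of 4393 genes tested, 77 (1.75%) were called, 39 (0.888%) higher and 38 (0.865%) lower at day 12, and day and preparation cannot be told apart. Xcl1, the chemokine that attracts cross-presenting dendritic cells, was at 543 and 545 CPM in the knockout and wild-type cells of day 9 and at 185 and 209 CPM in those of day 12 (-1.54 ± 0.23, edgeR adjusted p = 2.08e-08). Cxcr6, a receptor for tissue retention, was at 63.8 and 109 CPM on day 9 and 364 and 170 CPM on day 12 (1.59 ± 0.26, edgeR adjusted p = 2.27e-07). Pdcd1 was at 37.9 and 17.4 CPM on day 9 and 94.6 and 62.4 CPM on day 12 (1.41 ± 0.35, edgeR adjusted p = 0.00594). The values of the 2 days did not overlap for any of these 3 genes. They were picked from the called genes, and the share of all genes with such an order was not counted. Ly6a (Sca-1) rose by 1.33 ± 0.22. Capg, an actin-capping protein, rose as well, at 115 and 96.7 CPM on day 9 and 353 and 276 CPM on day 12, next to 1004 to 1103 CPM in macrophage-type barcodes. Maf, a transcription factor of both T cells and macrophages, rose by 2.37 ± 0.45. Ccl4, Irgm1, an interferon-induced GTPase, and Socs3 fell, at -2.45 ± 0.37, -1.74 ± 0.32 and -1.27 ± 0.33. Retnla, Apoe, Lyz2, Ccl6 and Ccl9, which macrophages and monocytes make, rose by 5.57, 2.99, 2.68, 2.23 and 3.15, and 2 of 5 monocyte and macrophage genes were called higher. The part of these transcripts in the other calls was not tested. No gene was called by edgeR after removal by doublet score, where 287 had an unadjusted p under 0.05 and DESeq2 on all cells called 3, and 38 were called without the cells of 5 or more Lyz2 UMIs, so no day difference passed under every alternative. Klra7, Tcf7 and Id3 were not called between days, at -0.08 ± 0.22, -0.16 ± 0.24 and -0.30 ± 0.29.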

How the data were processed

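UMI counts per gene and barcode were deposited by the authors for 4 libraries, made with Cell Ranger 2.0.2 on mm10, per the submitters' processing notes. They are raw counts, not normalized. Reads were not reprocessed here, and T cell receptor chain genes were not analysed here. The cells and gene lists were chosen with earlier results of these data known.

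Barcodes were selected by the rule (python 3.11.15, scanpy 1.11.5), and UMIs were summed per library and cell group. Sums were tested with edgeR 4.0.16 in R 4.3.3 (quasi-likelihood, TMM, filterByExpr, Benjamini-Hochberg adjusted p of at most 0.05), with the library as a block between cell groups, and with genotype and day within Ikzf2+ T cells. DESeq2 1.42.0 was an alternative, and the edgeR step was tested on simulated data. Log2 differences of edgeR carry a standard error derived from the test, the size of the difference over the square root of the quasi-likelihood F statistic. The tests of a difference between cell groups in the genotype effect, and the removal of cells with 5 or more Lyz2 UMIs, were added after seeing the data. That removal was made in Ikzf2+ T cells and in the other T cells low in Cd4 and Cd8b1, but not in CD8 T cells or NK cells. Cells are not replicates. The labels do not say whether libraries of the 2 days were prepared apart. Between cell groups, p-values rest on the spread between these libraries and on that borrowed from other genes. In the genotype and day fits with all cells, the spread came from the trend over all genes only. The 12 genes of the rule were not tested.

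Doublets were kept in the main result. Scrublet's own threshold called 4, 3, 12 and 1 barcodes in the knockout and wild-type libraries of day 9 and those of day 12. The alternative therefore removed the highest scores at 0.8% per 1000 barcodes, 112, 25, 34 and 109 barcodes, of which 3, 0, 4 and 2 were Ikzf2+ T cells. Thinning drew 2000 UMIs per cell; Clopper-Pearson and exact conditional intervals (scipy 1.17.1) cover counting error only. Named genes were the 12 largest changes in each direction among those called, with the same direction in every library or pair and a mean of at least 50 CPM (20 CPM for genotype and day) in the higher group. Genes of the lists were also named, and within a day the 8 largest ratios in each direction. The Klra6 split and the genes described in it fall outside that rule.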

Additional observations from a re-analysis of the deposited data

Results flagged for a closer look

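For Lef1 and Satb1 the genotype difference was not the same in Ikzf2+ T cells and CD8 T cells: the log2 ratio of knockout over wild-type in Ikzf2+ T cells minus that in CD8 T cells was -2.27 for Lef1 and -2.82 for Satb1 (edgeR adjusted p = 0.0320 for both). For Cxcl10 the same difference against NK cells was 2.38 (edgeR adjusted p = 0.0153).

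For 4 genes the knockout lay above wild-type at day 9 and below it at day 12, and the difference between the days was not tested. Stmn1 had log2 ratios of 1.66 at day 9 and -4.69 at day 12, and 2810417H13Rik (PCNA-associated factor) had 1.36 and -4.77. Ccl2, a monocyte chemokine, had 131 knockout UMIs and 0 wild-type UMIs at day 9, which sets a lower bound of 3.83 with 3 counts in the wild-type library, and a log2 ratio of -3.51 at day 12. H2-DMb1, an MHC class II chaperone chain, had 0.51 and -3.58. Few cells held these genes: the 63 and 46 UMIs of 2810417H13Rik in the knockout library of day 9 and the wild-type library of day 12 lay in 7 and 5 cells.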

How the results depend on the processing

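Against CD8 T cells 19 genes were higher and 24 lower. There were 30 higher with Cd8b1 of 0, and 35 and 45 without Ikzf2+ T cells of 5 or more Lyz2 UMIs. There were 218 and 266 with no low-count filter, and 35 higher with DESeq2. Leaving out 1 library gave 7 to 30 higher and 7 to 29 lower. Against NK cells (539 and 519) there were 804 lower without those Lyz2 cells and 348 and 294 with DESeq2; leaving out 1 library gave 339 to 476 higher and 323 to 468 lower. Against other T cells (34 and 72) there were 56 and 132 with doublet scores removed, 22 and 44 at a mitochondrial share of at most 5%, 18 higher with at least 3 marker UMIs, 106 and 280 with no filter, and 12 and 41 with DESeq2; leaving out 1 library gave 7 to 33 higher and 12 to 74 lower. Between genotypes (13 and 15) there were 1 and 2 with doublet scores removed, 5 and 1 without those Lyz2 cells, 24 higher with no filter, and 5 and 1 with DESeq2. Between days (39 and 38) edgeR called 0 and 0 with doublet scores removed (287 at an unadjusted p under 0.05), 16 and 22 without those Lyz2 cells, and 3 and 0 with DESeq2. In the genotype and day fits the prior degrees of freedom were infinite with all cells and 5.90 with doublet scores removed, so these calls rest on a spread borrowed from other genes. The cause of the other moves was not tested. No named gene turned its direction under any alternative in which it was tested. Not every named gene was tested under every alternative. Between genotypes without those Lyz2 cells, 6 of the 24 named genes were the same, 11 were weaker and 0 were reversed.

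Shares in the knockout and wild-type libraries of day 9 were 23.4% and 6.46% of T cells and 3.67% and 2.93% thinned, and those of day 12 were 20.9% and 15.3% of T cells and 2.21% and 2.34% thinned. With at least 3 marker UMIs they were 4.71% in the knockout library of day 9 and 2.16% and 2.21% at day 12, with Cd8b1 of 0 the first was 5.19%, and with no macrophage-gene UMI those of day 12 were 2.26% and 2.18%. The ratio of day 9 was 3.61 of T cells. Comparisons of cell groups already pair the groups of a library, and the genotype fit has day as a term. No paired analysis was possible by replicate number, because each genotype and day has 1 library and the groups share only replicate number 1. Depth limits genes of few UMIs, and 1 residual degree of freedom limits the genotype and day fits.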
